A study of Mus musculus with 27 samples.

Results

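The photoreceptor genes described here are 35 named genes of the phototransduction cascade, the outer segment and photoreceptor gene control, out of 30735 genes in a table of estimated read counts per transcript. They were taken by gene symbol, the transcripts of each gene were summed, and they were divided by known role into 11 rod genes, 12 cone genes and 12 genes that both photoreceptor types use. The comparisons ask how rod and cone genes differ in level between embryonic day 15 (E15) and postnatal day 3 (P3), between captured retinal ganglion cells and the cells left unbound, and between Brn3 genotypes.

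Rods and cones are the light-sensing neurons of the retina. In their outer segments an opsin that has absorbed light activates the G protein transducin, transducin activates the phosphodiesterase PDE6, and the fall in cyclic GMP closes cyclic-nucleotide-gated channels, after which kinases, arrestins and guanylate cyclases restore the dark state. Rods and cones use paralogous genes for most of these steps, and in the mouse cones leave the cell cycle earlier than most rods.

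The retinal samples came from C57Bl/6 mice with an alkaline phosphatase (AP) allele at Brn3a (Pou4f1) or at Brn3b (Pou4f2), POU-domain factors of retinal ganglion cells, the output neurons of the retina. The AP allele stood over a wild-type allele (Brn3aAP/WT and Brn3bAP/WT, called HET here) or over a knockout allele (Brn3aAP/KO and Brn3bAP/KO, called KO), so every retinal library, controls included, came from AP carriers. Dissociated cells bearing AP were bound with anti-AP magnetic beads (the RGC fraction), and the unbound cells were kept as supernatant (SN). RGC libraries came in pairs: HET and KO of both loci at P3, and HET and KO of Brn3b alone at E15, which makes 12 libraries in 6 groups. The 6 SN libraries, 1 from each of those genotypes and ages, were pooled by age into 4 P3 libraries and 2 E15 libraries, so the P3 pool mixes both loci while the E15 pool is from Brn3b mice alone. No label says that libraries came from separate animals, so p-values measure the spread between these libraries, which may be technical.

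The retinal libraries held 28905675 to 37394655 estimated counts each. As a check of the targeted genes, captured Brn3a HET cells had Pou4f1 at 486 and 444 CPM (library-size-normalised read counts, with TMM scaling), against 16.7 and 11 CPM in Brn3a KO. Pou4f2 was at 190 and 289 CPM in Brn3b HET and 21 and 18.6 CPM in Brn3b KO at P3, and at 325 and 224 against 65.7 and 63.1 CPM at E15. The second Brn3a KO RGC library carries disagreeing labels: Brn3a in its title, Brn3b in its genotype field. Its Pou4f1 (11 CPM) and Pou4f2 (268 CPM) levels lie on the side of its title, under which it was kept, and results that rest on it are also given without it. The source names of the 12 Brn3b libraries differ from their titles, and titles were used. As a check of the fraction labels, the mean of the 4 P3 RGC groups was set against P3 SN. In it 18 of 18 ganglion cell and 14 of 14 microglia markers were higher, against 27.3% of all genes. Of the progenitor markers 19 of 20 were lower, against 27.7%. The groups were not alike: the summed ganglion cell level was 1375 and 1754 CPM in Brn3b KO RGC, near the 594 to 1298 CPM of P3 SN. It was 4029 and 5792 CPM in Brn3b HET RGC and 7227 to 9878 CPM in Brn3a RGC.

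**Figure D1:**
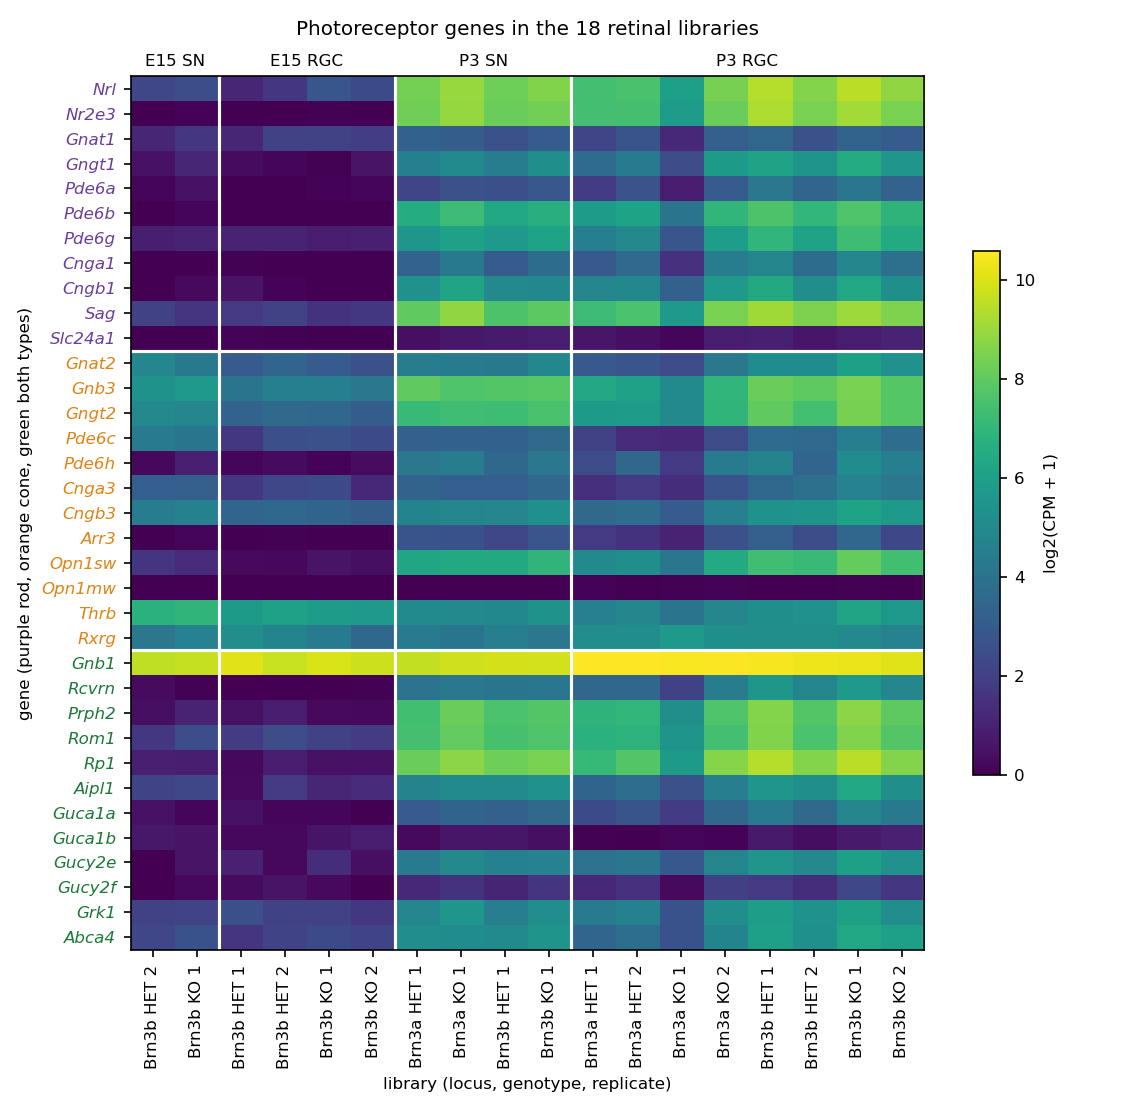
Heat map of log2(CPM + 1) for the 35 photoreceptor genes (rows, by role) in the 18 retinal libraries (columns, by age, fraction and genotype). Rod genes are low at E15 in both fractions, with a summed level of at most 12.1 CPM, and Brn3a KO RGC replicate 1 is the lowest of the 8 P3 RGC libraries for 31 of the 34 tested genes.

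In the unbound cells every rod gene was higher at P3 than at E15, while of the 11 tested cone genes 5 rose, 1 fell and 5 did not pass the test. By edgeR's quasi-likelihood test on the 18 retinal libraries, 26 of the 34 photoreceptor genes that passed the low-count filter were higher at P3 and 1 was lower (adjusted p under 0.05), against 15.6% of all 16954 genes called higher and 17.5% called lower. By role, 11 of 11 rod genes, 5 of 11 tested cone genes and 10 of 12 shared genes rose. The median log2 fold change was 6.77 for rod genes (6.48 with the 2 genes absent at E15 at their lower bound), 0.44 for cone genes and 4.65 for shared genes, and -0.02 over all genes. In these bulk samples fewer cells of a type and less RNA per cell cannot be told apart. Of other cell types, 13 of 18 ganglion cell markers and 6 of 20 progenitor markers were lower at P3 in the same comparison, and their part in the result was not tested.

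Nrl, the leucine-zipper factor that sets rod fate, was at 3.74 and 4.79 CPM in the E15 SN libraries and at 335, 498, 307 and 384 CPM in the P3 SN libraries. Its log2 change was 6.48 ± 0.68 (SE, n = 4 and 2 libraries, edgeR adjusted p = 2.2e-05), and the ages did not overlap. Nr2e3, the nuclear receptor that acts with Nrl and represses cone genes in rods, had 3 estimated counts in the E15 libraries together and 50046 at P3, a ratio of 8399 with an exact 95% counting interval of 2874 to 40731. Nrl was thus detected in both E15 libraries, while Nr2e3 was at 0 in 1 of them.

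Among the rod transduction genes, Sag, rod arrestin, went from 3.26 and 1.98 CPM to 257, 452, 197 and 240 CPM (6.77 ± 0.76, edgeR adjusted p = 3.56e-05). Pde6b, the beta catalytic subunit of rod PDE6, went from 0 and 0.113 CPM to 93.2, 152, 81.8 and 97.8 CPM (10.79 ± 1.20, edgeR adjusted p = 6.78e-05). Both were highest in the Brn3a KO SN library, and neither overlapped between ages. Cnga1, the alpha subunit of the rod channel, had an estimated count that rounded to 0 at E15 and 1681 counts at P3, at least 282-fold higher against a floor of 3 counts over the E15 libraries. Slc24a1, the rod sodium-calcium-potassium exchanger, was at least 14.6-fold higher by the same floor, yet reached only 0.338 to 0.819 CPM. Gnat1, the rod transducin alpha subunit, had the smallest rod change, from 1.23 and 2.24 CPM to between 5.15 and 8.74 CPM (2.06 ± 0.64, edgeR adjusted p = 0.0236), and without the Brn3b HET E15 SN library it was no longer called (1.73, edgeR adjusted p = 0.19). Gngt1 (transducin gamma, 5.12 ± 0.96), Pde6a (PDE6 alpha, 4.15 ± 0.87), Pde6g (PDE6 gamma, 5.97 ± 0.81) and Cngb1 (channel beta, 8.73 ± 1.17) also rose.

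Thrb, the thyroid hormone receptor needed for M cones, was the photoreceptor gene that fell. It stood at 109 and 121 CPM at E15 and at 31.5, 30.7, 30.2 and 42.7 CPM at P3, a log2 change of -1.77 ± 0.21 (edgeR adjusted p = 4.59e-05), with every P3 library below both E15 libraries. Rxrg, a retinoid X receptor of immature cones and ganglion cells, was at 17.6 and 25 CPM at E15 and 16.3 to 22 CPM at P3, and its ages overlapped (-0.18 ± 0.24, edgeR adjusted p = 0.592).

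The cone transduction genes went both ways. Gnat2, cone transducin alpha, was at 28.6 and 18.6 CPM at E15 and 18.3 to 29.4 CPM at P3 (-0.10 ± 0.40), and Cnga3 and Cngb3, the cone channel subunits (0.13 ± 0.44 and 0.44 ± 0.32), also did not pass the test. Pde6c, the cone PDE6 catalytic subunit, was at 19.5 and 16.6 CPM at E15 and lower, at 8.43 to 11.6 CPM, in each P3 library, but did not pass after adjustment (-0.93 ± 0.42, edgeR adjusted p = 0.104). These genes were therefore present at E15, where their rod counterparts Pde6b, Cnga1 and Cngb1 had at most 0.198 CPM. By contrast Opn1sw, the short-wavelength opsin, went from 2.09 and 1.42 CPM to 73.5, 85.9, 86 and 120 CPM (5.70 ± 0.60, edgeR adjusted p = 2.29e-05). Arr3, cone arrestin (6.12 ± 1.02), Pde6h, cone PDE6 gamma (4.97 ± 0.94), Gngt2, cone transducin gamma (2.47 ± 0.42), and Gnb3, cone transducin beta (2.32 ± 0.41), rose as well. Opn1mw, the middle-wavelength opsin, reached at most 0.0611 CPM in any retinal library and was not tested.

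**Figure D2:**
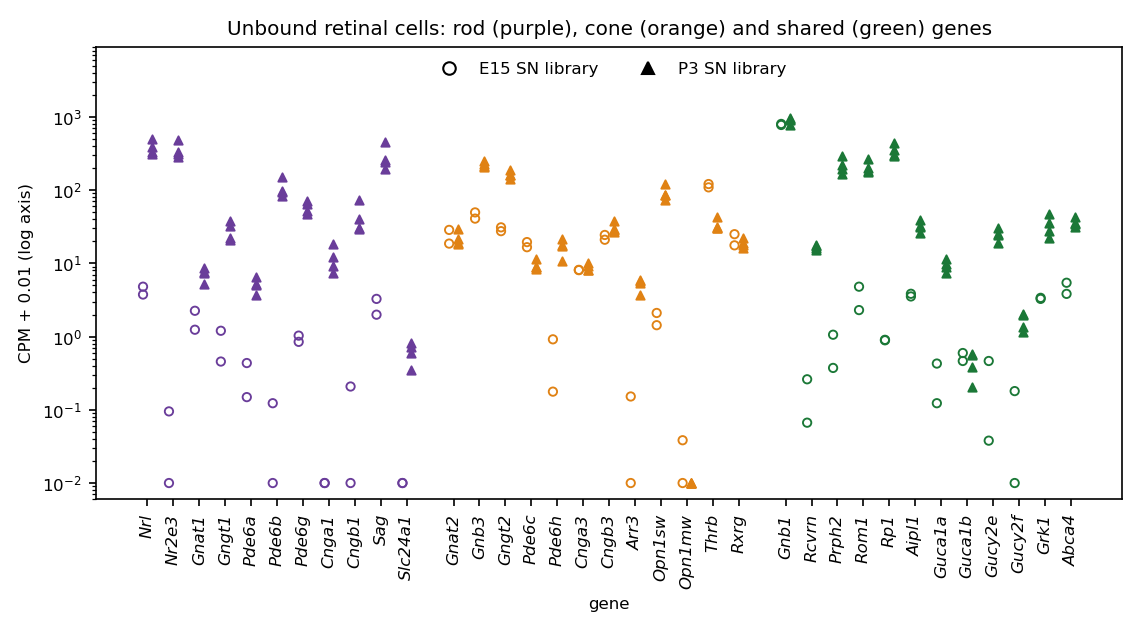
CPM of each photoreceptor gene in the 2 E15 SN libraries (circles) and the 4 P3 SN libraries (triangles), on a log axis after adding 0.01, grouped as rod, cone and shared. Rod genes are separated by age, Gnat2, Cnga3 and Rxrg overlap, and Thrb is lower at P3.

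Among genes of both photoreceptor types, Rp1, an axonemal microtubule protein, and Prph2, a tetraspanin of disc rims, had the largest changes (8.60 ± 0.89 and 8.26 ± 0.81). Prph2 went from 0.363 and 1.05 CPM to 168, 293, 192 and 217 CPM, with no overlap. Its partner Rom1 (5.87 ± 0.62), the calcium sensor Rcvrn (6.70 ± 0.85), the guanylate cyclases Gucy2e (6.67 ± 0.94) and Gucy2f (4.19 ± 1.26), and the cyclase activator Guca1a (5.12 ± 0.78) rose too. Smaller rises were those of Grk1, the opsin kinase (3.31 ± 0.63), Aipl1, the PDE6 chaperone (3.13 ± 0.68), and Abca4, the retinoid transporter of disc rims (2.97 ± 0.51). Gnb1, a G protein beta subunit used by many cell types, lay between 775 and 965 CPM in the 6 SN libraries (0.19 ± 0.12), and Guca1b, a second cyclase activator, had at most 0.586 CPM there (-0.30 ± 0.66). Neither passed the test.

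Upstream sequence is shown for genes that rose together and for a cone gene that did not, because CRX and NRL are the known regulators of this programme. The OTX-type core TAATCC, which CRX binds, and the NRL half-site TGCTGA were searched on both strands (reverse complements GGATTA and TCAGCA), overlapping matches allowed, in the 250 bases before RefSeq starts (GRCm38.p6), where 25 of the 35 genes had 28 windows. TAATCC occurred in 4 of 8 rod, 2 of 11 cone and 5 of 9 shared windows, against 6.25% of 32851 windows of the same length. TGCTGA occurred in 2 of 8, 1 of 11 and 1 of 9 windows, against 16.1%. Capitals mark matches, and each sequence runs 5′ to 3′ on the strand of its gene: Sag at chr1:87803430-87803679 (plus), Aipl1 at chr11:72037510-72037759 (minus), Gnat2 at chr3:108092816-108093065 (plus) and Opn1sw at chr6:29380514-29380763 (minus).
Sag: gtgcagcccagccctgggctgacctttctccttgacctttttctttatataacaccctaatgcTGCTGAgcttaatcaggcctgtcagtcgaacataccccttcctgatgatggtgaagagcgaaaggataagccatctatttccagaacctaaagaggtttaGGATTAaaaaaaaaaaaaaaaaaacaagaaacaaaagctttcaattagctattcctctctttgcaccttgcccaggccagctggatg
Aipl1: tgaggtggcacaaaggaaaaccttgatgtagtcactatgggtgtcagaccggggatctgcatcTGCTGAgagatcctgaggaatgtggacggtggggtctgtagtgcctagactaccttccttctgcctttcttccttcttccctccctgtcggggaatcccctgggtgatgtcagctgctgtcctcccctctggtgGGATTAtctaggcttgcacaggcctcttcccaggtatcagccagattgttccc
Gnat2: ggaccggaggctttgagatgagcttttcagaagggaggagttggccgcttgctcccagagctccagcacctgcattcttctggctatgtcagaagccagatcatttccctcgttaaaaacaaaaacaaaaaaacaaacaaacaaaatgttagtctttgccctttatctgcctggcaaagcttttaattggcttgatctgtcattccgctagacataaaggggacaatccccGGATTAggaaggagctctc
Opn1sw: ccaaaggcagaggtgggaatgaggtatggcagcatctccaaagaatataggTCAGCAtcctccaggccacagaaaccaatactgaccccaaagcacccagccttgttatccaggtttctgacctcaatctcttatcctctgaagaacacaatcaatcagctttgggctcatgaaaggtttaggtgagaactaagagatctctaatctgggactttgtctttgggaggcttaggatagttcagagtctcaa
Of the 28 windows only those of Sag and Aipl1 held both motifs, against 0.962% of the 32851 windows. Windows of the rod genes Nrl, Nr2e3 and Slc24a1 held neither motif, though these genes rose. The same was true of the cone genes Arr3 and Pde6h and the shared genes Prph2, Rom1 and Grk1. The window of Gnat2, which did not pass the test between ages, held TAATCC, and that of Opn1sw, which rose, held TGCTGA alone. The Gnat2 window lay inside the gene as annotated in the count data, and its RefSeq start was 72 bases from the nearest transcript start there. For Sag, Aipl1 and Opn1sw that distance was 0 bases. A match is a description of letters and not a shown binding site.

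In the same SN comparison 15.6% of all genes rose and 17.5% fell. Other photoreceptor lists also held more risers than fallers. Of 12 photoreceptor transcription factors 11 rose, among them Samd7 (10.71 ± 0.86), a repressor of non-rod genes, and Mef2d (1.86 ± 0.20). Of 12 other phototransduction genes 10 rose, including Rgs9 (1.73 ± 0.22), which speeds transducin shut-off. Of 19 outer segment, cilium and matrix genes 10 rose and 3 fell, of 9 visual cycle genes 5 rose, led by Rbp3 (3.98 ± 0.41), and of 14 photoreceptor synapse genes 10 rose, with Slc17a7, the vesicular glutamate transporter, at 4.73 ± 0.62. Of other retinal lists, 3 of 11 tested bipolar, 4 of 6 horizontal, 5 of 12 amacrine and 4 of 14 microglia markers rose and 1, 1, 3 and 0 fell.

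Rod and cone paralogs were compared per length, as counts divided by transcript length and scaled to the same total in every library, as TPM values are (length-scaled level). In P3 SN the rod gene exceeded its cone paralog in 5 of 7 pairs. Sag stood at 332 ± 142 (SD, n = 4) against 8.34 ± 1.67 for Arr3, and Pde6b at 74.5 ± 24.6 against 6.37 ± 0.95 for Pde6c. The exceptions were the transducin alpha and gamma subunits: Gnat2 was at 30.5 ± 12.8 and Gnat1 at 7.13 ± 2.66, and Gngt2 at 610 ± 48.1 and Gngt1 at 47.9 ± 14.4. In each of the 4 P3 SN libraries these cone subunits were above the rod ones. In E15 SN the rod gene was higher in 2 of 7 pairs, namely Pde6g over Pde6h and Sag over Arr3. The widely used beta subunit Gnb1 was above Gnb3 at both ages (515 ± 69.6 against 43.8 ± 8.22 at E15, n = 2, and 789 ± 75.9 against 270 ± 27.9 at P3, n = 4). At E15 only 7.6% of the SN counts of Sag, 49.9% of those of Pde6g and 21.0% of those of Gnat1 lay on protein-coding transcripts. At P3 the share for Sag was 93.6%.

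**Figure D3:**
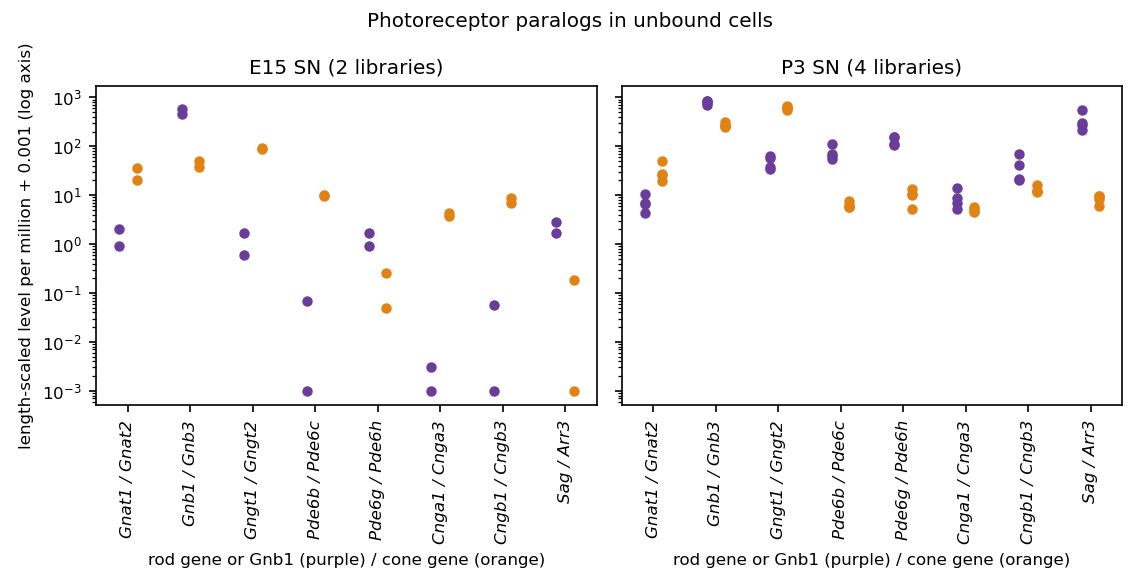
Length-scaled level (log axis, after adding 0.001) of 7 rod and cone paralog pairs and of Gnb1 and Gnb3 in the SN libraries at E15 and P3, with each point a library. At P3 the rod gene is above its cone paralog in 5 of 7 pairs, and Gnat2 and Gngt2 are above Gnat1 and Gngt1.

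At E15 the photoreceptor genes called between the captured and the unbound cells were cone genes. Of the 34 tested genes, 8 were lower in the Brn3b RGC fraction than in SN and 0 were higher, against 13.0% of all genes lower and 13.4% higher, and the 8 were 8 of 11 cone genes, 0 of 11 rod genes and 0 of 12 shared genes. The summed level of the rod genes was 6.66 to 12 CPM in RGC and 9.65 to 12.1 CPM in SN. Rod genes such as Cnga1 and Slc24a1 (0 CPM in SN) and Pde6b (0 and 0.113 CPM) were too low for a difference to be called. The rod genes Nrl (-0.51 ± 0.53), Sag (-0.13 ± 0.61) and Gnat1 (0.54 ± 0.60) had higher levels, and their fractions overlapped. Pde6c was at 2.33, 5, 5.26 and 4.22 CPM in the 4 RGC libraries and 19.5 and 16.6 CPM in SN (-2.11 ± 0.42, edgeR adjusted p = 0.00406). Thrb was at 54.4, 66.1, 57.1 and 51.4 CPM in RGC and 109 and 121 CPM in SN (-1.01 ± 0.21, edgeR adjusted p = 0.00494). For each of the 8 genes all RGC libraries were below both SN libraries. That was also so for the rod gene Pde6a (-3.92 ± 1.37, edgeR adjusted p = 0.0503) and the shared genes Rcvrn (-4.23 ± 1.78), Rp1 (-1.01 ± 0.88) and Aipl1 (-1.46 ± 0.61), which did not pass. The other called genes were Gnat2 (-1.68 ± 0.39), Gnb3 (-1.19 ± 0.35), Gngt2 (-1.59 ± 0.37), Cnga3 (-1.47 ± 0.43), Cngb3 (-1.26 ± 0.31) and Opn1sw (-2.61 ± 0.66), whereas Rxrg had overlapping fractions (0.05 ± 0.24). Without the Brn3b HET E15 SN library, which leaves 1 SN library at that age, only Thrb was called (-1.07). Of 12 photoreceptor transcription factors 5 were lower in RGC and 1 higher. Beside these genes, 12 of 20 progenitor markers were lower and 14 of 14 microglia and 9 of 18 ganglion cell markers higher in RGC, and the part of those markers was not tested.

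The captured cells also held photoreceptor transcripts that rose with age. In Brn3b HET RGC, 28 of 34 genes were higher at P3 than at E15 and 0 lower, against 16.6% and 12.3% of all 16673 genes, and in Brn3b KO RGC 30 were higher and 0 lower, against 14.4% and 11.1%. Each set held 10 of 11 rod and 10 of 12 shared genes, with 8 cone genes in HET and 10 in KO. Sag was at 2.37 and 3.11 CPM in HET at E15 and 536 and 365 CPM at P3 (7.37 ± 0.84, edgeR adjusted p = 0.00037), and at 1.9 and 2.29 against 532 and 376 CPM in KO (7.78 ± 0.85, edgeR adjusted p = 0.000321). Pde6b was at 0 after rounding in all 4 E15 RGC libraries and at least 6619-fold higher in the 4 P3 Brn3b RGC libraries together. Ages did not overlap for either gene. Thrb did not pass in HET (-0.61 ± 0.26) or KO (0.17 ± 0.26). In the same HET comparison 14 of 14 microglia markers were higher and 10 of 20 progenitor markers lower. Amacrine markers went both ways (7 of 12 higher, 3 lower), as did ganglion cell markers (3 of 18 higher, 6 lower). In KO 6 of 14 microglia markers were higher and 4 of 20 progenitor markers lower. There 5 of 12 amacrine markers were higher and 4 lower, and 3 of 18 ganglion cell markers were higher and 9 lower. The part of these cells was not tested.

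The signed log2 change from E15 to P3 was lower in SN than in Brn3b RGC for 8 genes and higher for 0, against 3.71% and 3.16% of all genes, when the difference of the changes was tested in the same fit. For Thrb this was a fall in SN beside no called change in Brn3b RGC. For the others it was a smaller rise or no called change in SN. They were 7 cone genes, Gnat2 (-2.62 ± 0.51), Gngt2 (-2.19 ± 0.48), Pde6c (-2.71 ± 0.55), Cnga3 (-2.35 ± 0.56), Cngb3 (-2.0 ± 0.40), Opn1sw (-3.61 ± 0.74) and Thrb (-1.53 ± 0.27), and the rod gene Pde6a (-5.33 ± 1.44). Pde6a had only 0, 0, 2 and 4 counts in the E15 RGC libraries and 5 and 15 in E15 SN, so the size of its difference is poorly set. Gnat2, for instance, went from 7.14, 9.89, 7.55 and 5.1 CPM to 34.5, 34.4, 63.2 and 39.8 CPM in Brn3b RGC. In SN it overlapped between ages. The P3 SN pool also holds Brn3a mice, and with Brn3b mice only, 2 of the 8 genes were no longer called. Without the Brn3b HET E15 SN library only Thrb was called (-1.57).

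**Figure D4:**
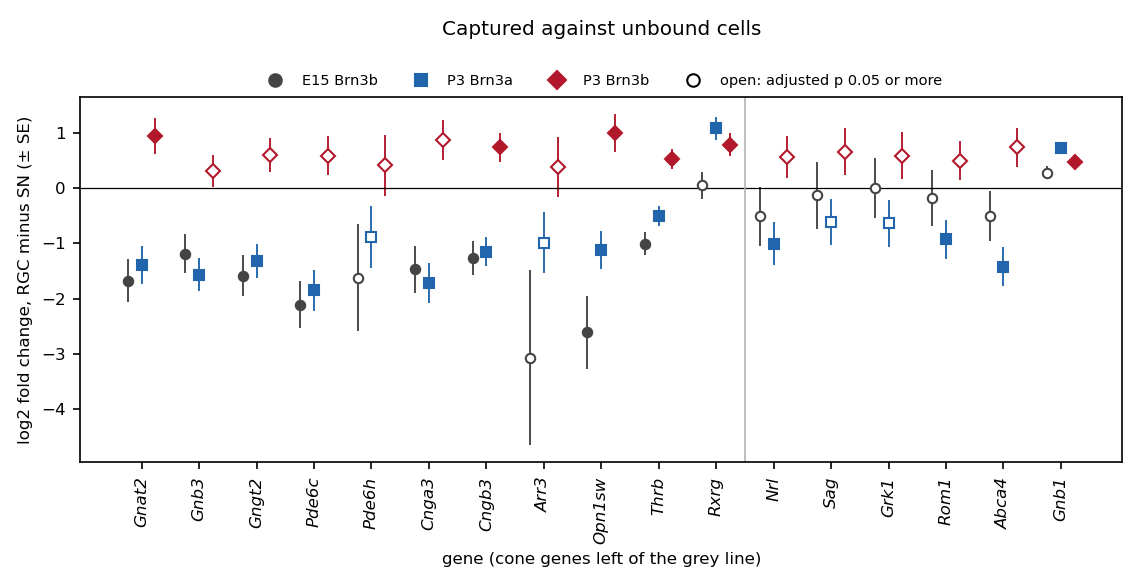
Log2 fold change of RGC over SN with SE for 11 cone genes and 6 other photoreceptor genes, for Brn3b at E15 and for Brn3a and Brn3b at P3; open symbols did not pass the test. At P3 Gnat2 is at -1.39 in Brn3a and 0.94 in Brn3b capture.

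At P3, averaged over the 4 RGC groups, few photoreceptor genes differed between captured and unbound cells: 2 of 34 were higher in RGC and 2 lower, against 27.3% and 27.7% of all genes. Rxrg was at 24.6 to 51.1 CPM in the 8 RGC libraries and 16.3 to 22 CPM in SN (0.94 ± 0.18, edgeR adjusted p = 0.000469), and Gnb1 was higher by 0.60 ± 0.09, both without overlap. Gnb3 (-0.63 ± 0.25) and Guca1b (-1.42 ± 0.50) were lower, with overlap. Without the library whose labels disagree, 14 genes were lower and 2 higher (median -0.57), against 29.1% and 25.1% of all genes.

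That average joins captures that differed, so each locus was also set against SN separately, a split chosen after the data were seen. In Brn3a RGC 14 genes were lower than in SN and 2 higher, against 31.7% and 30.9% of all genes, and 32 of 34 had a negative change (median -0.81). The 14 held 8 cone genes, such as Gnat2 (-1.39 ± 0.34) and Pde6c (-1.85 ± 0.37), 4 shared genes, and the rod factors Nrl (-1.01 ± 0.39) and Nr2e3 (-1.03 ± 0.39). In Brn3b RGC 7 genes were higher than in SN and 0 lower, against 16.8% and 12.7%, and 34 of 34 had a positive change (median 0.62). The 7 were Opn1sw (1.00 ± 0.35), Gnat2 (0.94 ± 0.33), Rcvrn (1.25 ± 0.43), Cngb3 (0.74 ± 0.26), Thrb (0.52 ± 0.18), Rxrg (0.79 ± 0.20) and Gnb1 (0.48 ± 0.10). Rxrg and Gnb1 were also the 2 genes higher in Brn3a RGC (1.08 ± 0.20 and 0.73 ± 0.10). By role, the median change in Brn3a RGC was -0.61 for rod, -1.15 for cone and -0.74 for shared genes. Without the library whose labels disagree, 32 of 34 changes in Brn3a RGC were again negative (median -1.75). The medians were then -1.62 for rod, -1.98 for cone and -1.62 for shared genes, so the rod genes among the called ones depend on that library. In that fit KO, weighted equally with HET, rests on replicate 1 alone. That library was the lowest of the 8 P3 RGC libraries for 31 of the 34 genes. Its summed rod level was 211 CPM, against 627 and 724 CPM in Brn3a HET.

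Brn3b and Brn3a captures were compared directly. Between the HET groups at P3, 3 of 34 genes were higher in Brn3b and 0 lower, against 2.03% and 1.82% of all genes: Gnat2 (2.45 ± 0.52), Cngb3 (1.84 ± 0.41) and Guca1b (4.80 ± 1.14, at 0 in 1 Brn3a library and 0.0304 CPM in the other). Gnat2 was at 6.76 and 5.92 CPM in Brn3a HET and 34.5 and 34.4 CPM in Brn3b HET (edgeR adjusted p = 0.0405), without overlap. The change was positive for 33 of 34 genes (median 1.56, against 0.01 over all genes), and leaving out any 1 of the 4 libraries left 0 called. With HET and KO together, a comparison added after the data were seen, 22 genes were higher in Brn3b and 0 lower, against 22.4% in each direction. The median change was 1.46, and 2.36 without the library with disagreeing labels. The latter rests, for Brn3a KO, on replicate 1 alone, the lowest of the 8 P3 RGC libraries for 31 of the 34 genes. Sag, for example, was at 154, 192, 52.4 and 353 CPM in the Brn3a RGC libraries (HET, HET, KO, KO) and 536, 365, 532 and 376 CPM in those of Brn3b (1.28 ± 0.44, edgeR adjusted p = 0.0388).

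Markers of other cells moved with that difference. The summed progenitor level was 855 to 1083 CPM in Brn3a and 1305 to 3965 CPM in Brn3b P3 RGC, against 4285 to 5854 CPM in P3 SN. The summed ganglion cell level was 7227 to 9878 CPM in Brn3a P3 RGC and 594 to 1298 CPM in P3 SN. In Brn3b P3 RGC it was 4029 and 5792 CPM in HET and 1375 and 1754 CPM in KO. The microglia level was 3845 to 4772 CPM in Brn3a and 1261 to 3265 CPM in Brn3b RGC. With HET and KO together 19 of 20 progenitor markers were higher in Brn3b, and 17 of 18 ganglion cell and 14 of 14 microglia markers were lower. Of all genes 22.4% were called in each direction. The part of these cells in the photoreceptor values was not tested.

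**Figure D5:**
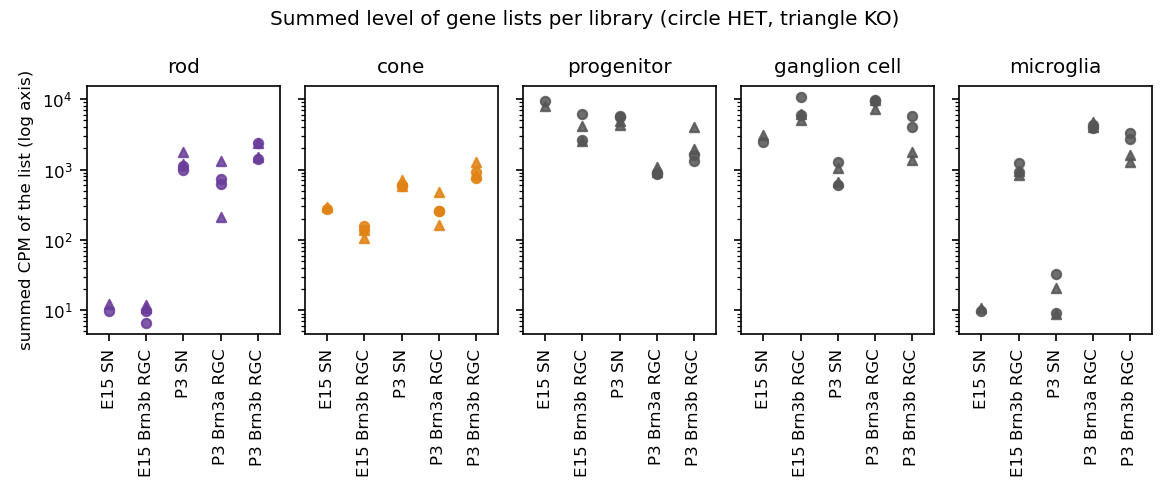
Summed CPM of the rod, cone, progenitor, ganglion cell and microglia lists in each retinal library (log axis), in 5 classes by age, fraction and locus; circles are HET and triangles KO. The rod list is at 211 to 1312 in Brn3a and 1414 to 2403 in Brn3b P3 RGC.

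By edgeR, no photoreceptor gene passed the threshold between KO and HET for either factor. Brn3a KO against HET at P3 gave 0 of 34 genes (edgeR and DESeq2; 0 at an unadjusted p under 0.05), against 0.0120% of all genes higher and 0.00600% lower. The 2 Brn3a KO libraries lay far apart: Nrl was at 62.1 and 343 CPM in KO and 169 and 185 CPM in HET, and KO replicate 2, the library with disagreeing labels, was the highest of the 4 Brn3a libraries for 30 of 34 genes. With it 27 of 34 changes were positive (median 0.26), and without it 32 of 34 were negative (median -1.40), with 0 called either way and 0% of all genes called in the latter fit.

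Brn3b KO against HET at P3 gave 0 of 34 (edgeR and DESeq2), against 0.264% higher and 3.15% lower, with 1 gene at an unadjusted p under 0.05, Thrb. It was at 37.7 and 40.6 CPM in HET and 71.2 and 48.8 CPM in KO (0.63 ± 0.26, edgeR adjusted p = 0.226). The change was positive for 28 of 34 genes (median 0.23), and in the same comparison 13 of 18 ganglion cell and 11 of 14 microglia markers were lower, whose part was not tested. At E15 Brn3b KO also gave 0 of 34 by edgeR, against 0.666% higher and 1.18% lower. Rxrg had an unadjusted p under 0.05, at 36.2 and 26.3 CPM in HET and 20.2 and 10.9 CPM in KO (-1.01 ± 0.30, edgeR adjusted p = 0.156), and DESeq2 called it and Cngb1. The KO effect did not differ between ages for any of the 34 genes (edgeR and DESeq2; 0 at an unadjusted p under 0.05), against 0.00600% higher and 0.186% lower.

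The series also held 9 brain libraries, all from P3: 3 of superior colliculus, 3 of lateral geniculate nucleus, 1 labelled PTA and 2 labelled brain. In them, 31 of the photoreceptor genes had at most 5.08 CPM and Abca4 at most 10.4 CPM. Gnb1 was at 1166 to 1516 CPM, Thrb at 4.28 to 12.9 CPM and Rxrg at 4.62 to 16.8 CPM. For Pde6a, Gngt2, Opn1sw, Opn1mw, Gnb1 and Rcvrn a gene on the opposite strand overlaps, and for Cngb3 one on the same strand. The libraries were stranded, but whether counting used strand is not given in the sources used here, so their counts are uncertain to that extent.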

How the data were processed

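RNA-seq was deposited by the authors as estimated counts per transcript for 18 retinal and 9 brain libraries, with a transcript length and a percent GC column per the file headers. The submitters' processing notes name Trimmomatic 0.32, Bowtie2 2.2.1, eXpress 1.3.1 and GRCm38.p3, and their order and the use of strand are not given in the sources used here. Percent GC was not used. Estimated counts of 88198 transcripts were summed to 30735 genes and rounded. In R 4.3.3, edgeR 4.0.16 (TMM, filterByExpr with a minimum count of 10, quasi-likelihood test, Benjamini-Hochberg adjusted p under 0.05 over all genes tested) was fitted to the 18 retinal libraries (16954 genes) and, for comparisons within the RGC fraction, to its 12 libraries (16673 genes). Biological coefficients of variation were 27.8% and 26.3%. Alternatives were DESeq2 1.42.0, its size factors, no low-count filter, a replicate block, only the compared groups and leaving out each library, and further splits were added after seeing the data. Scripts were tested on simulated data. CPM are TMM-scaled, separately for retina and brain, whose libraries held 10122962 to 13769685 counts, and brain values are given without a test. Intervals and floors of 3 counts cover counting error only. The 6 RGC replicate pairs correlated at 0.973 to 0.989 and differed beyond sampling noise. All 35 genes may be named, and from each other list up to 4 genes with the smallest adjusted p. The other lists are photoreceptor transcription factors, other phototransduction, outer segment, cilium and matrix, visual cycle, photoreceptor synapse, and bipolar, horizontal, amacrine, ganglion cell, progenitor and microglia markers. The genes and lists were chosen with earlier results of these data known.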

Additional observations from a re-analysis of the deposited data

Results flagged for a closer look

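Within the 4 P3 SN libraries, Pde6c (11.6 CPM) and Thrb (42.7 CPM) in the Brn3b KO library lay farther from the others than Dixon's 95% critical value allows. Of 34 genes tested 2 did so, and chance gives about 1 in 20 groups.

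The change from E15 to P3 differed between SN and Brn3b RGC, as SN minus RGC on the log2 scale, for Pde6a (-5.33), Gnat2 (-2.62), Gngt2 (-2.19), Pde6c (-2.71), Cnga3 (-2.35), Cngb3 (-2.0), Opn1sw (-3.61) and Thrb (-1.53) by edgeR's test of the difference. Pde6a had 0 to 4 counts in each E15 RGC library.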

How the results depend on the processing

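The age difference in SN gave 25 to 28 of 34 genes over its alternatives. Leaving out each library gave 25 to 27 genes for SN by age, 2 to 16 for RGC against SN at P3 (16 without Brn3a KO RGC replicate 2), 1 to 10 at E15 and 1 to 8 for the difference in age change (1 in both without the Brn3b HET E15 SN library), 24 to 25 and 26 to 29 for Brn3b HET and KO RGC by age, 0 to 0 for each KO comparison and 0 to 0 for Brn3b HET against Brn3a HET. Where this left 1 library in a group, its spread was assumed to be that of the other groups. RGC against SN at P3 gave 4 genes, 2 with the replicate block, 16 with Brn3a RGC alone and 7 with Brn3b RGC alone. The 4-group mean had 23 of 34 changes negative, Brn3a alone 32 and Brn3b alone 0. Among genes called in either of the fits compared, the sign differed from that mean for Thrb (-0.51) with Brn3a alone, and for Gnat2 (0.94), Gnb3 (0.31), Cngb3 (0.74), Opn1sw (1.00) and Guca1b (0.63) with Brn3b alone. Brn3b KO against HET at E15 gave 2 genes with DESeq2. Brn3b HET against Brn3a HET gave 3 genes, 8 with DESeq2, 9 with no low-count filter, 0 with the replicate block, 25 with only the compared groups and 22 with HET and KO groups. The causes were not tested. Between RGC groups, deviations of the libraries numbered 1 correlated at -0.116 to 0.171 over 15 pairs of groups, 1 over 0.1, and libraries were treated as unpaired. With 1 SN library for each genotype and age, this cannot show whether an RGC and an SN library came from the same capture. Depth limits Nr2e3, Pde6b, Cnga1 and Slc24a1 at E15, with 0 to 4 counts in SN, and Pde6a at E15, with 0 to 4 counts in each RGC library.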
